A study of Arabidopsis thaliana with 12 samples.

Results

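The genes described here encode 3 families of detoxification and secondary-metabolism enzymes of Arabidopsis thaliana: cytochrome P450s (symbols CYP), UDP-glycosyltransferases (UGT) and glutathione S-transferases (GST). They were chosen by a rule on the symbol, from probe sets that name a single gene. The forms are CYP, number, letter, number, then UGT, number, letter, number, and GSTU, GSTF, GSTZ, GSTT or GSTL with a number. The rule was set with earlier results of these data known, and it mentions UGT76B1 and GSTU25 by name. Cyclophilins, whose symbols also begin with CYP, and the flavonoid gene UF3GT were left out. The rule gave 82 genes of the 13350 genes named on the array, namely 22 P450s, 47 UGTs and 13 GSTs. Of the P450s 18 belong to the CYP71B subfamily, and of the GSTs 11 are of the tau class (GSTU), with GSTF4 of the phi class and GSTL3 of the lambda class. RefSeq holds 225 P450, 58 UGT and 47 GST genes with symbols of these forms, so the array's named probe sets cover the P450s least. Each of the 82 genes had exactly 1 probe set.

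P450s insert oxygen into small molecules, and UGTs and GSTs then attach a sugar or glutathione, which makes such molecules more soluble and ready for transport into the vacuole. In leaves the same families build and inactivate hormones, flavonols, lignin precursors and glucosinolates, and a share of UGT and tau-class GST genes is known to respond to pathogens, herbicides and oxidative stress. ARGONAUTE1 (AGO1) is the protein that carries microRNAs to their target transcripts.

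Leaf RNA was hybridised to 12 Affymetrix ATH1 arrays in 4 groups of 3 biological replicates, each replicate a pool of 4 plants. The groups were ago1-27 submerged, ago1-27 in the dark, wild type submerged and wild type in the dark. All plants were of the Col-0 ecotype, 4 weeks old per the sample labels and grown in soil, and ago1-27 is a hypomorphic AGO1 mutant, in which the protein's function is reduced and not lost. Submerged plants stood for 12 h under water that reached 10 cm above the leaves, in darkness. The plants of the dark groups were kept dark for 12 h, so that every group, the dark ones included, was without light.

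The signal on every array had a 2% trimmed mean of 500 and a median of 134 to 207, and 3 arrays per group set how precise each value can be. A signal under the array's 40th percentile (72 to 120.3 over the arrays) was taken as low, since no detection calls were used here. The arrays labelled ago1-27 and those labelled wild type lay apart on the first principal component, which held 68.2% of the variance. WT dark replicate 1 and ago1-27 submerged replicate 3 stood apart from their groups. The GAPDH 3' to 5' ratio, a measure of RNA integrity, was 1.95 ± 0.24 on ago1-27 arrays and 1.35 ± 0.11 on wild-type arrays (SD, n = 6 each). The actin ratio was 11.4 ± 0.99 in ago1-27 submerged and 8.0 ± 0.86 in ago1-27 dark. In wild type it was 6.3 ± 0.63 submerged and 8.0 ± 0.48 dark (SD, n = 3 each). The ubiquitin ratio was 3.3 ± 0.3, 2.7 ± 0.2, 2.8 ± 0.2 and 2.7 ± 0.1 in the same order of groups. The low-oxygen gene PDC2 followed the genotype label and not the treatment label: 152 ± 74.8 in ago1-27 submerged, 114 ± 22.8 in ago1-27 dark, 2712 ± 545 in wild type submerged and 2838 ± 493 in wild type dark (signal, SD, n = 3 each). It is 1 of 7 low-oxygen loci looked at, chosen with earlier results of these data known. For 7 of the 7 every array labelled ago1-27 was below every array labelled wild type. The calmodulin-like gene CML38, for example, was at 27.6 ± 7.82 in ago1-27 submerged, 37.5 ± 3.92 in ago1-27 dark, 4819 ± 311 in wild type submerged and 4412 ± 500 in wild type dark. Submerged and dark arrays, taken over both genotypes, lay apart for 0 of the 7. That count follows from the order of the genotypes and does not test treatment. Separation by treatment within a genotype was not counted. Unlike these loci, the control probe set AFFX-r2-At-U12639_at followed the treatment label, at 18.1 ± 15.9 on the submerged arrays and 27800 ± 2000 on the dark arrays (SD, n = 6 each). Which transcript it reads was not examined, so its difference is not read as a response to submergence. AGO1 itself is not named by any probe set in the annotation used, so the genotype labels could not be checked on it.

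The low-oxygen loci thus followed the genotype label and the control probe set the treatment label. If the arrays labelled WT dark and ago1-27 submerged had been exchanged, each contrast given below as ago1-27 against wild type would compare dark with submerged plants of a single genotype, and each contrast given as submerged against dark would compare wild type with ago1-27 plants. Such an exchange was not tested. Below, ago1-27, wild type, submerged and dark mean the arrays so labelled, and every direction rests on those labels. The part of the RNA integrity differences in the results, the submergence contrast in ago1-27 included, was not tested either.

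The tissue label was checked on 5 photosynthesis genes with a probe set (LHCB4.1, LHCB4.2, PSAN, PSBY and RCA). Their summed signal was 93886 to 119216 in ago1-27 submerged, 97187 to 108008 in ago1-27 dark, 55568 to 61886 in wild type submerged and 41944 to 51555 in wild type dark. All 5 were higher in ago1-27 in both treatments. Of the root markers, EXPA7 and EXPA18 were under the low-signal limit on every array and PYK10 was at 633 ± 641 in ago1-27 submerged, with no more than 136 as the mean of any other group. The guard-cell markers SPCH and MUTE were under the limit on every array, and FMA was at 69.4 to 142 in the group means. Fewer cells of a type and less RNA per cell cannot be told apart in these leaf samples.

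Of the 82 genes, 30 were over the low-signal limit on all 12 arrays, 15 on 3 to 11 arrays, 9 on 1 or 2 arrays and 28 on none. Over all non-control probe sets 49.9% exceeded it on all 12 arrays and 30.4% on none. By family, 8 of 22 P450s, 17 of 47 UGTs and 5 of 13 GSTs exceeded the limit throughout. The genes on none of the arrays were 9 P450s, 16 UGTs and 3 GSTs, among them CYP79A2, which starts benzylglucosinolate synthesis, UGT74F1, which glucosylates salicylic acid, and UGT78D3, a flavonol arabinosyltransferase. UGT76E1, a jasmonate glucosyltransferase, was likewise under the limit on every array, and so were CYP51G2 and CYP71B27, which RefSeq lists as pseudogenes.

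**Figure D1:**
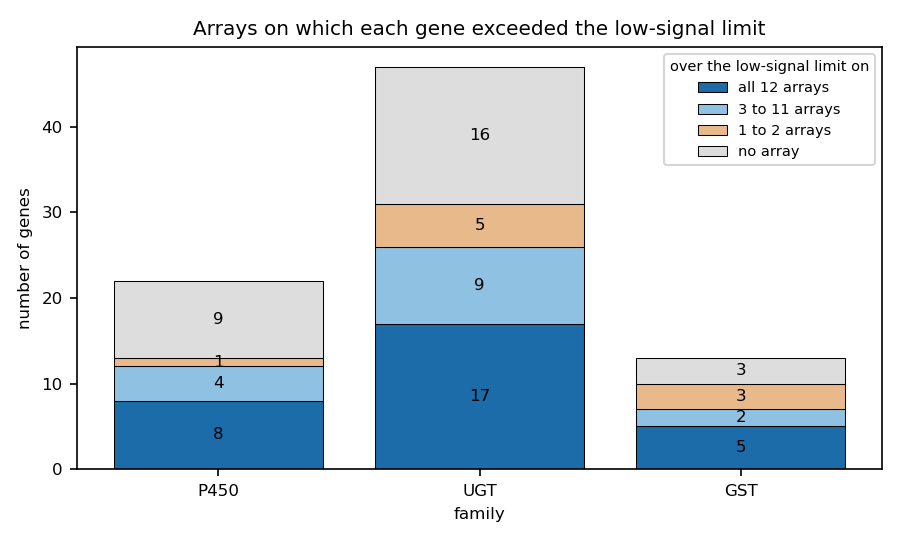
Number of P450, UGT and GST genes (vertical axis) by the number of arrays on which their signal exceeded the array's 40th percentile. The blocks at the top are genes over the limit on no array: 9 P450s, 16 UGTs and 3 GSTs.

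A pattern of presence by genotype was found for 4 genes, UGT76B1, UGT73B4, UGT73B5 and GSTU25, which exceeded the limit on all 6 wild-type arrays and on no ago1-27 array. The reverse was found for 0 of the 82 genes. Over all non-control probe sets, 199 (0.875%) had the wild-type pattern and 94 (0.413%) the reverse. The rule that chose the genes mentions UGT76B1 and GSTU25 and was set with earlier results known, so this count is a description.

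The filter on low signals (over the limit on at least 3 of the 12 arrays) left 45 of the 82 genes for testing: 12 P450s, 26 UGTs and 7 GSTs. It can pass a gene through the group in which it is high, so the counts that follow describe the genes that passed and are not read as support for a difference. All contrasts come from a limma fit over 14812 probe sets, with Benjamini-Hochberg adjustment over all of them. A gene was called at an adjusted p under 0.05. Values after ± are standard deviations for signals and standard errors for log2 changes.

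**Figure D2:**
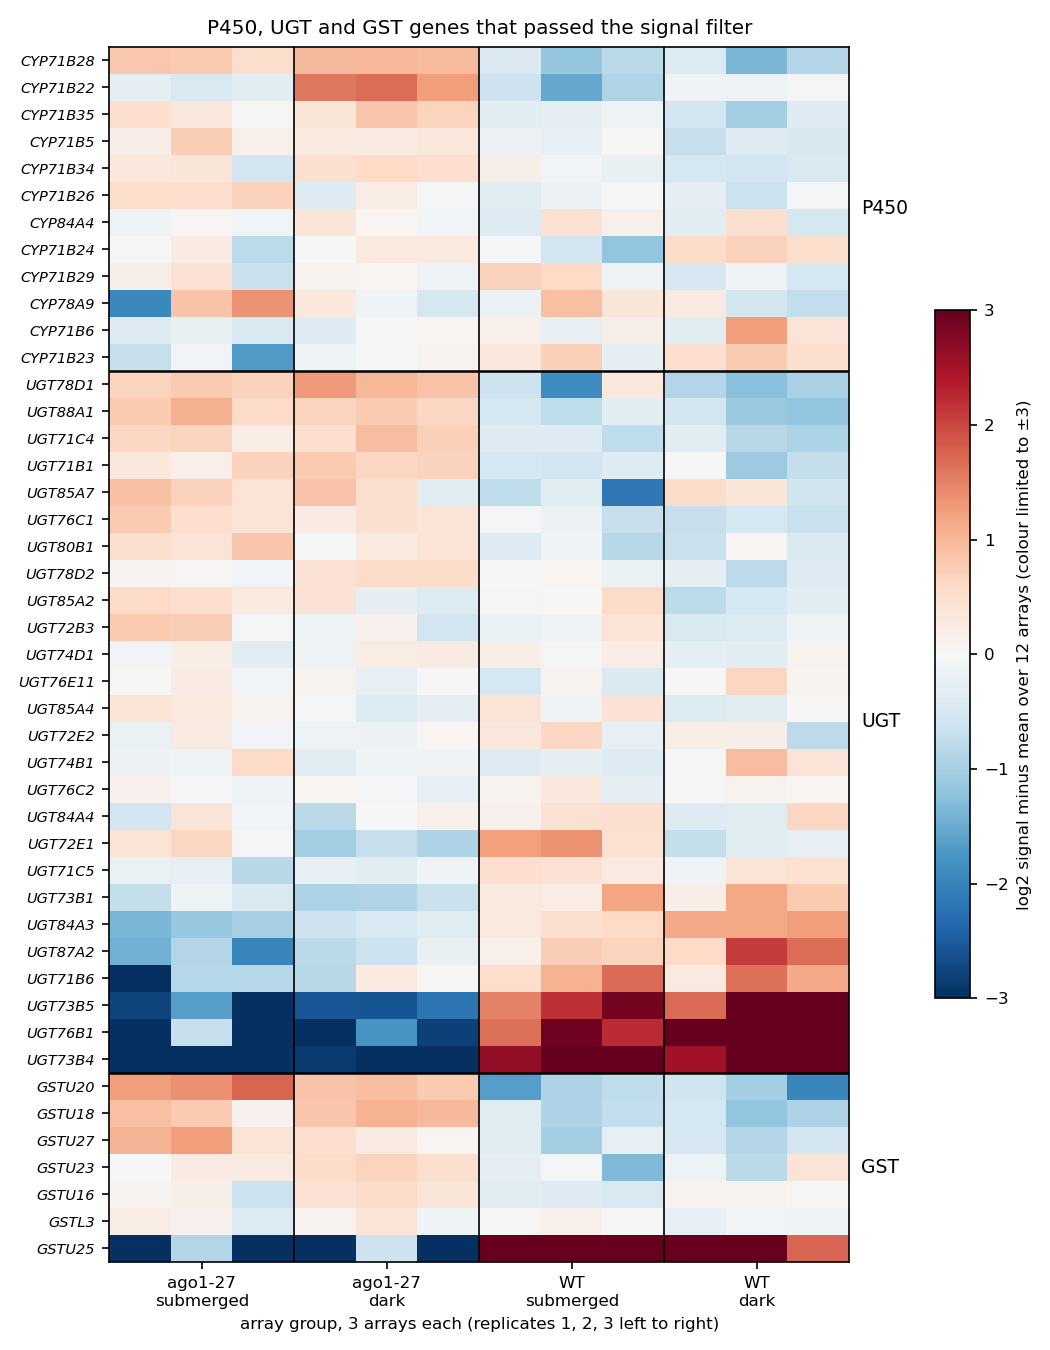
Signal of the 45 tested genes (rows, in family blocks) on the 12 arrays (columns, by group), as log2 minus the gene's mean over all arrays, with red above and blue below that mean. Within a block the genes run from the highest in ago1-27 relative to wild type to the lowest. UGT76B1, UGT73B4, UGT73B5 and GSTU25 reach the lowest colour on ago1-27 arrays.

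Arrays labelled ago1-27 were compared with those labelled wild type within each treatment, to ask which of these transcripts differ where AGO1 function is reduced, in dark and in submerged leaves. In the dark, 23 of the 45 genes (51.1%) were called, 14 higher and 9 lower in ago1-27. This compares with 52.9% of all probe sets tested (32.1% higher and 20.8% lower). Under submergence 25 (55.6%) were called, 14 higher and 11 lower, against 44.5% of all probe sets (26.7% higher, 17.8% lower). The dark share is near that of the whole array, and the submerged one is above it by a difference that was not tested. The ago1-27 and wild-type arrays did not overlap for 27 of the 45 genes in the dark and for 26 of the 45 under submergence. Both are near the shares of all probe sets, 60.9% and 56.4%.

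The contrasts share no arrays, though they share the estimate of the spread. In them 19 of the 45 genes were called in both, all 19 in the same direction. Over all probe sets tested, 35.7% were called in both in the same direction (21.3% higher and 14.4% lower) and 0.122% in opposite directions. As a part of the calls, these are 19 of the 23 in the dark and 19 of the 25 under submergence. On the whole array it was 5285 of 7834 dark calls and 5285 of 6591 submerged calls. The 11 higher ones were UGT71B1, UGT71C4, UGT76C1, UGT78D1, UGT88A1, GSTU18, GSTU20, GSTU27, CYP71B5, CYP71B22 and CYP71B28. The 8 lower ones were UGT71C5, UGT73B1, UGT73B4, UGT73B5, UGT76B1, UGT84A3, UGT87A2 and GSTU25. Without the filter, 27 of the 82 genes (32.9%) were called in the dark, against 33.7% of all probe sets, and 27 (32.9%) under submergence, against 28%. The additional calls there (GSTU15, GSTU22, GSTU26, CYP71B16 and CYP71B36 in the dark, and UGT71C2, UGT73D1 and UGT76E12 under submergence) lay over the limit on at most 2 arrays.

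Hormone-conjugating UGTs were represented by 12 genes, of which 6 were tested. In ago1-27, 1 of the 6 was higher and 2 were lower in the dark, and 1 was higher and 3 were lower under submergence. Over all probe sets tested, 32.1% were higher and 20.8% lower in the dark, and 26.7% and 17.8% under submergence. These shares also stand beside the counts of the other lists of UGTs below. The lists were written with earlier results of these data known, and their counts are descriptions. UGT76B1 (AT3G11340) glucosylates isoleucic acid, salicylic acid and N-hydroxypipecolic acid and is known as a brake on immune responses. Its signals were 4.82, 23 and 11.3 in ago1-27 dark, against 1327, 1685 and 1212 in wild type dark. Under submergence they were 3.35, 48.4 and 1.91 in ago1-27, against 247, 592 and 369 in wild type. All 6 ago1-27 arrays were under the low-signal limit and no wild-type array came near them. Only bounds can therefore be given: UGT76B1 was at least 15.5-fold lower in ago1-27 in the dark (adjusted p = 6.1e-05) and at least 3.79-fold lower under submergence (adjusted p = 0.000412).

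The abscisic acid glucosyltransferase gene UGT71C5 (AT1G07240) was at 438, 413 and 488 in ago1-27 dark, against 489, 682 and 720 in wild type dark. Its submerged signals were 455, 444 and 295 in ago1-27, against 738, 708 and 632 in wild type. In both treatments the ago1-27 arrays were all below the wild-type ones, though in the dark the nearest of them were at 488 and 489. The log2 change was -0.82 ± 0.19 under submergence (adjusted p = 0.00412) and -0.48 ± 0.19 in the dark, where the adjusted p of 0.0498 lay at the threshold. The dark call was lost without each of the WT dark replicates 2 and 3 (adjusted p = 0.14 and 0.17) and each of the ago1-27 dark replicates (0.062 to 0.14). It was also lost without ago1-27 submerged replicate 1 or 2 (0.051 and 0.055) or any of the WT submerged arrays (0.059 to 0.064), which enter through the shared estimate of the spread. Further losses came with no filter (0.067), quantile normalization (0.07), no variance trend (0.061) and a fit of only the arrays compared (0.055).

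UGT71B6, which glucosylates abscisic acid as well, was under the limit on all ago1-27 arrays, with 3.71, 36.3 and 36 in ago1-27 submerged, against 93.5, 135 and 210 in wild type submerged. It was at least 1.39-fold lower there (adjusted p = 0.00634). In the dark it had 36.8, 79.9 and 67.1 in ago1-27, against 78, 206 and 144 in wild type, and the groups overlapped (adjusted p = 0.208, though 0.027 with a floor on low signals and 0.047 with a pseudocount). The cytokinin N-glucosyltransferase gene UGT76C1 went the other way, with 263, 310 and 292 in ago1-27 dark, against 137, 155 and 139 in wild type dark. Under submergence its signals were 382, 312 and 288 in ago1-27, against 217, 196 and 137 in wild type. UGT76C1 rose by a log2 change of 1.00 ± 0.19 in the dark (adjusted p = 0.000763) and 0.85 ± 0.19 under submergence (adjusted p = 0.00321). Its neighbour on chromosome 5, UGT76C2, encodes an enzyme of the same activity and was not called, with log2 changes of -0.14 ± 0.16 and -0.07 ± 0.16. The auxin glucosyltransferase gene UGT74D1 was also not called, with adjusted p = 0.202 in the dark and 0.459 under submergence.

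Of the UGTs known for xenobiotic or stress responses, 7 had a probe set and 4 were tested. All 4 were lower in ago1-27 in both treatments, beside 20.8% of all probe sets tested in the dark and 17.8% under submergence. The list was written with earlier results of these data known, and UGT73B4 and UGT73B5 passed the filter on wild-type arrays alone. The count is therefore a description and not read as support for a shared response. UGT73B5 (AT2G15480), which acts on redox status during the hypersensitive response, was at 28.3, 27.8 and 36.6 in ago1-27 dark, against 546, 2629 and 2066 in wild type dark. Under submergence it was at 24.4, 52.7 and 9.63 in ago1-27, against 475, 758 and 1230 in wild type. The neighbouring gene UGT73B4 (AT2G15490), a relative that also responds to pathogens and chemicals, was at 7.68, 3.77 and 6.98 in ago1-27 dark, against 325, 1228 and 683 in wild type dark. Both genes were under the limit on every ago1-27 array and over it on every wild-type array.

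UGT73B4 had 3.45, 5.2 and 6.21 in ago1-27 submerged, against 355, 541 and 924 in wild type submerged. UGT73B5 was at least 16-fold lower in ago1-27 in the dark (adjusted p = 1.72e-05) and at least 7.66-fold lower under submergence (adjusted p = 5.93e-05). UGT73B4 was at least 7.23-fold lower in the dark (adjusted p = 1.35e-06) and at least 5.64-fold lower under submergence (adjusted p = 1.75e-06). In both genes WT dark replicate 1, an array that lay apart, had the lowest of the WT dark values.

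UGT87A2 (AT2G30140), which influences flowering time, was measured on all arrays. It was at 788, 876 and 1179 in ago1-27 dark, against 2092, 5898 and 4400 in wild type dark. Under submergence its signals were 508, 747 and 355 in ago1-27, against 1531, 2302 and 2172 in wild type. The genotypes did not overlap in either treatment, and UGT87A2 fell by 2.02 ± 0.35 in the dark (adjusted p = 0.000403) and by 1.94 ± 0.35 under submergence (adjusted p = 0.000823) on the log2 scale. UGT73B1, of the same subfamily as UGT73B4 and UGT73B5, had 123, 127 and 150 in ago1-27 dark, against 270, 527 and 407 in wild type dark. Under submergence it had 144, 215 and 172 in ago1-27, against 291, 274 and 536 in wild type. UGT73B1 fell by 1.54 ± 0.29 in the dark (adjusted p = 0.000674) and by 1.00 ± 0.29 under submergence (adjusted p = 0.0131). The submerged call was lost without ago1-27 submerged replicate 1 (adjusted p = 0.053) or WT submerged replicate 3 (adjusted p = 0.063). The other 3 genes of the list (UGT73C1, UGT73C2 and the salt-responsive UGT85A5) did not pass the filter.

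**Figure D3:**
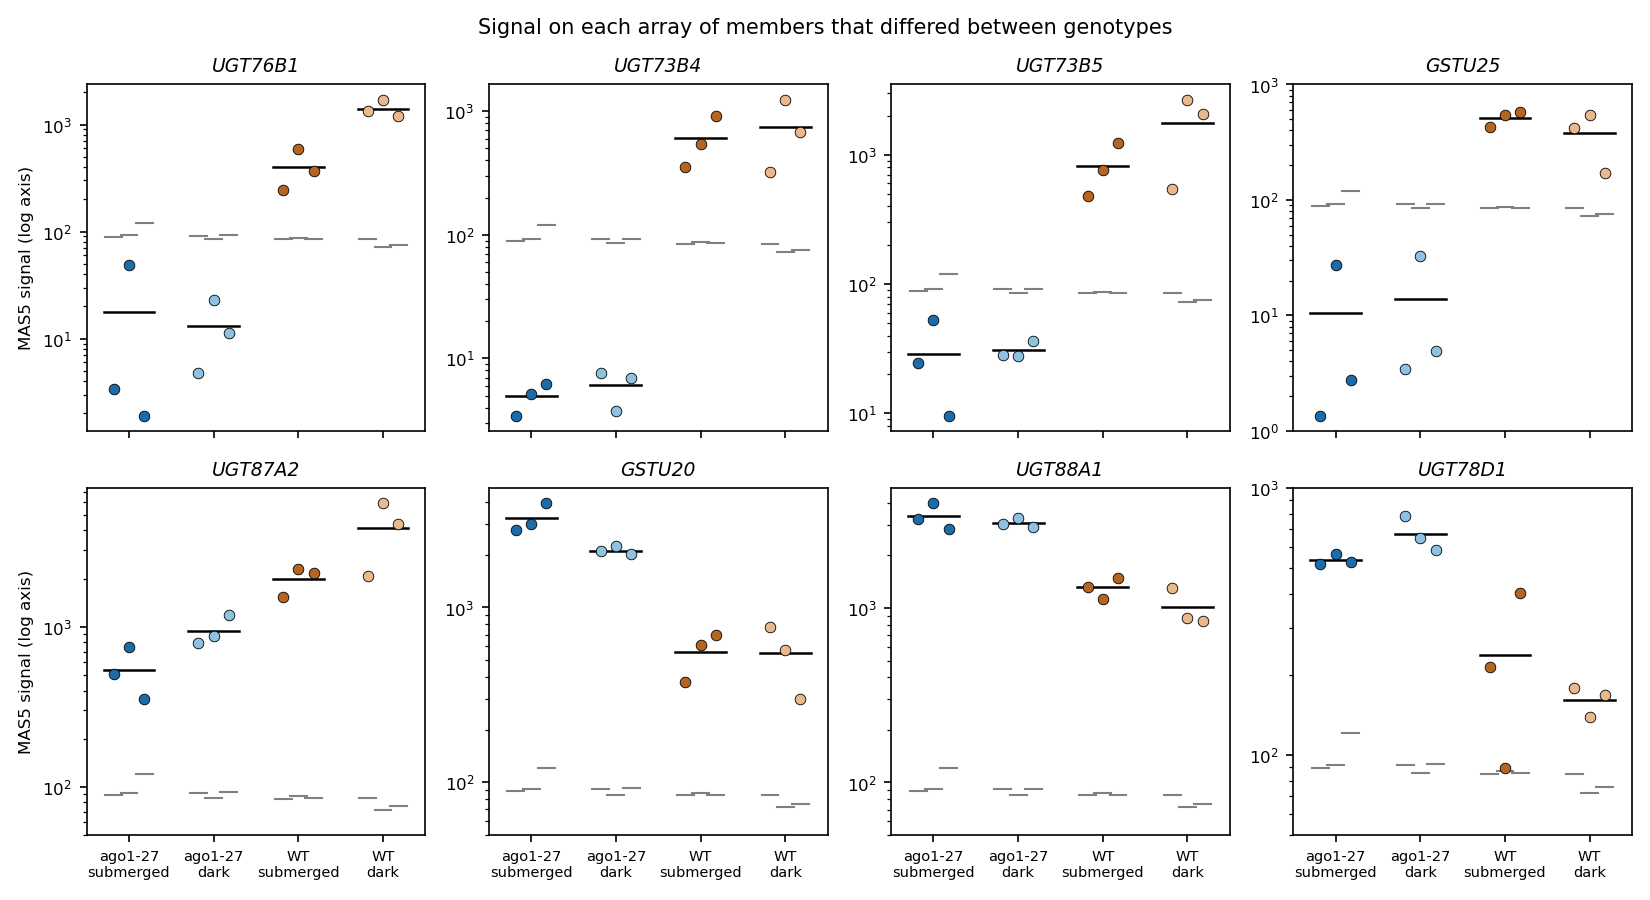
Deposited signal on each array (points, log axis) of 8 genes that differed between genotypes, with the group mean as a black line and each array's low-signal limit as a grey tick. UGT76B1, UGT73B4, UGT73B5 and GSTU25 lie under the limit on all ago1-27 arrays. GSTU20, UGT88A1 and UGT78D1 are higher on every ago1-27 array than on any wild-type array.

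Of the 3 flavonoid UGTs with a probe set, 2 were tested, and 2 rose in ago1-27 in the dark and 1 under submergence. The third, UGT78D3, was under the limit on every array. UGT78D1 (AT1G30530), the flavonol 3-O-rhamnosyltransferase, was at 789, 649 and 587 in ago1-27 dark, against 178, 138 and 167 in wild type dark. Its submerged signals were 521, 564 and 529 in ago1-27, against 214, 89.2 and 406 in wild type. All ago1-27 arrays exceeded all wild-type arrays, though the submerged wild-type values spread widely. UGT78D1 rose 4.19-fold in the dark (log2 change 2.06 ± 0.39, adjusted p = 0.000705) and 2.72-fold under submergence (1.44 ± 0.39, adjusted p = 0.00933).

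UGT78D2 (AT5G17050), the flavonoid 3-O-glucosyltransferase, was at 915, 993 and 984 in ago1-27 dark, against 548, 387 and 516 in wild type dark, a rise of 1.01 ± 0.14 (adjusted p = 0.000101). Under submergence the genotypes overlapped, at 717, 684 and 634 in ago1-27, against 672, 704 and 590 in wild type (log2 change 0.05 ± 0.14, adjusted p = 0.794).

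Among UGTs of glucosinolate, phenylpropanoid and sterol metabolism, 8 had a probe set and 6 were tested. In the dark 0 were higher and 2 lower, and under submergence 1 was higher and 2 lower. UGT84A3 (AT4G15490), which makes glucose esters of hydroxycinnamic acids such as sinapate, was at 154, 170 and 184 in ago1-27 dark, against 517, 529 and 565 in wild type dark. Under submergence it was at 90.8, 107 and 117 in ago1-27, against 290, 327 and 354 in wild type. The replicates of each group lay close together and the genotypes were far apart. UGT84A3 fell by 1.66 ± 0.15 in the dark (adjusted p = 3.93e-06) and by 1.63 ± 0.15 under submergence (adjusted p = 7.51e-06).

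UGT74B1, the S-glucosyltransferase of glucosinolate core synthesis, was at 766, 865 and 882 in ago1-27 dark, against 961, 1817 and 1242 in wild type dark. It fell by 0.63 ± 0.23 (adjusted p = 0.0345), a call lost without any 1 of the 3 ago1-27 dark arrays (adjusted p = 0.061 to 0.1) or without WT dark replicate 2 (0.16) or 3 (0.062). UGT72E1, which glucosylates coniferyl and sinapyl aldehydes, was at 730, 852 and 529 in ago1-27 submerged, against 1289, 1395 and 753 in wild type submerged. The groups overlapped, the change was -0.68 ± 0.24 (adjusted p = 0.036), and the call was lost without ago1-27 submerged replicate 1 (0.062) or 3 (0.13) and without WT submerged replicate 1 (0.12) or 2 (0.15). The sterol glucosyltransferase gene UGT80B1 was at 169, 157 and 213 in ago1-27 submerged, against 92, 112 and 67.4 in wild type submerged, a rise of 1.01 ± 0.27 (adjusted p = 0.00824).

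Of the UGTs in none of these lists, UGT88A1 (AT3G16520) was at 3018, 3290 and 2908 in ago1-27 dark, against 1306, 882 and 841 in wild type dark. Its submerged signals were 3258, 3978 and 2822 in ago1-27, against 1319, 1127 and 1495 in wild type. Every ago1-27 array was above every wild-type array, with rises of 3.1-fold (log2 change 1.63 ± 0.18, adjusted p = 1.55e-05) and 2.54-fold (1.35 ± 0.18, adjusted p = 0.00011). UGT71C4 rose by 1.42 ± 0.20 in the dark and 1.02 ± 0.20 under submergence, and UGT71B1 by 1.3 ± 0.23 and 0.88 ± 0.23. UGT85A7 was over the limit on 2 of the ago1-27 submerged arrays and none of the wild-type submerged ones, at 123, 108 and 88 against 39.2, 51.5 and 15, so that it was at least 1.23-fold higher (adjusted p = 0.0127). That call was lost without WT submerged replicate 3 (adjusted p = 0.051).

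The glutathione transferases that were called numbered 4 of the 7 tested, the same 4 in both treatments. This is 57.1% in each, beside 52.9% of all probe sets tested in the dark and 44.5% under submergence. GSTU25 (AT1G17180), a tau-class enzyme that can conjugate the explosive TNT, was at 3.43, 32.8 and 4.96 in ago1-27 dark, against 416, 546 and 170 in wild type dark. Under submergence it was at 1.34, 27.4 and 2.76 in ago1-27, against 429, 544 and 579 in wild type. Every ago1-27 array was under the limit. GSTU25 was at least 3.77-fold lower in the dark (adjusted p = 0.000851) and at least 5.15-fold lower under submergence (adjusted p = 0.000255).

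The other 3 rose. GSTU20 (AT1G78370), which binds the jasmonate-conjugating enzyme JAR1 (also called FIN219), was at 2098, 2234 and 2013 in ago1-27 dark, against 770, 574 and 300 in wild type dark. Its submerged signals were 2765, 2999 and 3938 in ago1-27, against 373, 611 and 694 in wild type. The genotypes were far apart in both treatments, with a 4.15-fold rise in the dark (log2 change 2.05 ± 0.30, adjusted p = 0.000126) and a 5.91-fold rise under submergence (2.56 ± 0.30, adjusted p = 4.05e-05).

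GSTU18 (AT1G10360) was at 2169, 2481 and 2357 in ago1-27 dark, against 834, 537 and 641 in wild type dark, and at 2244, 2096 and 1324 in ago1-27 submerged, against 934, 641 and 725 in wild type submerged. It rose 3.53-fold (adjusted p = 2.55e-05) and 2.43-fold (adjusted p = 0.000538). GSTU27 (AT3G43800) was at 593, 496 and 434 in ago1-27 dark, against 295, 226 and 286 in wild type dark, and at 847, 995 and 552 in ago1-27 submerged, against 329, 206 and 348 in wild type submerged. It rose 1.88-fold (adjusted p = 0.00755) and 2.7-fold (adjusted p = 0.000591). Both genes were higher on every ago1-27 array than on any wild-type array of the same treatment. GSTL3, a lambda-class enzyme that reduces quercetin-glutathione conjugates, was not called, with 3369, 4072 and 2852 in ago1-27 dark, against 2662, 2971 and 2889 in wild type dark (adjusted p = 0.217). GSTU16 and GSTU23 were not called either (adjusted p = 0.0981 and 0.102 in the dark), though GSTU16 passed in both treatments with array weights (0.0066 and 0.0046) and GSTU23 in the dark without WT dark replicate 3 (0.044).

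Of the 12 P450s tested, 5 were higher and 0 lower in ago1-27 in the dark, and 4 were higher and 1 lower under submergence. This is 41.7% in each treatment, beside 52.9% of all probe sets tested in the dark and 44.5% under submergence. All of those called belong to CYP71B, as do all the P450s tested except CYP78A9 and CYP84A4. CYP71B28 (AT1G13090) was at 471, 479 and 468 in ago1-27 dark, against 182, 93.5 and 131 in wild type dark. Under submergence it was at 419, 415 and 345 in ago1-27, against 179, 107 and 138 in wild type. The genotypes did not overlap, and CYP71B28 rose 3.62-fold in the dark (log2 change 1.86 ± 0.24, adjusted p = 4.48e-05) and 2.83-fold under submergence (1.5 ± 0.24, adjusted p = 0.000359).

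CYP71B22 (AT3G26200) was at 1092, 1170 and 866 in ago1-27 dark, against 336, 328 and 351 in wild type dark. Its submerged signals were 296, 264 and 288 in ago1-27, against 236, 126 and 196 in wild type. The ago1-27 arrays were above the wild-type arrays in both treatments, by a log2 change of 1.61 ± 0.20 in the dark (adjusted p = 3.95e-05) and 0.65 ± 0.20 under submergence (adjusted p = 0.0208). The submerged call was lost without ago1-27 submerged replicate 1 (adjusted p = 0.059) or WT submerged replicate 2 (0.088). CYP71B5 rose 1.76-fold in the dark (adjusted p = 0.00271) and 1.42-fold under submergence, where the adjusted p of 0.0421 lay close to the threshold. That call was lost without ago1-27 submerged replicate 2 (adjusted p = 0.19), WT submerged replicate 1 (0.1) or 2 (0.12), any of the ago1-27 dark arrays (0.056 to 0.057) or WT dark replicate 3 (0.053). CYP71B34 and CYP71B35 were called only in the dark, at log2 changes of 1.04 ± 0.21 and 1.27 ± 0.22 (adjusted p = 0.00141 and 0.00039), and the difference from their submerged change was not called (interaction adjusted p = 0.173 and 0.303). With array weights that difference passed for CYP71B34 (adjusted p = 0.038), and CYP71B35 was called under submergence as well (0.011).

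Under submergence CYP71B26 was at 200, 198 and 227 in ago1-27, against 108, 124 and 134 in wild type (log2 change 0.78 ± 0.22, adjusted p = 0.013). CYP71B23 was at 402, 617 and 199 in ago1-27, against 827, 1066 and 537 in wild type, a fall of 1.09 ± 0.34 (adjusted p = 0.0193). The CYP71B23 groups overlapped, and the call was lost without ago1-27 submerged replicate 3 (adjusted p = 0.064), the array that lay apart, and without WT submerged replicate 1 (0.054) or 2 (0.087). CYP71B6, which acts on indole-3-acetonitrile, CYP78A9, a regulator of organ and seed size, and CYP84A4, which acts in arabidopyrone synthesis, were tested and not called. With each array centred on its median, 3 of the submerged P450 calls did not pass the threshold: CYP71B5 (adjusted p = 0.29), CYP71B22 (0.12) and CYP71B26 (0.056).

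The 3 families were then set side by side. Among tested members the median log2 change in the dark was 0.33 for P450s, -0.07 for UGTs and 0.76 for GSTs, beside 0.17 for all probe sets tested. Under submergence it was 0.24, -0.02 and 0.72, beside 0.17. Both GST medians are the value of GSTU23, which was not called in either treatment. GSTU23 was over the limit on 1 of the 3 wild-type dark arrays and on 0 of the wild-type submerged ones. With genes under the limit in a whole group set at their bound, the submerged GST median was 0.27 and the dark one stayed at 0.76. Over all 82 genes without the filter, the dark medians were 0.25, -0.15 and 0.31, beside 0.14 for all probe sets, and the submerged ones 0.00, -0.04 and 0.44, beside 0.19. These medians are descriptions and the difference between families was not tested. Centring each array on its median takes the general shift of 0.17 away and leaves 0.14 for P450s, -0.26 for UGTs and 0.565 for GSTs in the dark. With that centring the share of higher calls over all probe sets was 47.1% in the dark, against 60.7% as deposited, and 42% under submergence, against 60% as deposited. The members called in the dark stayed at 14 higher and 9 lower, and under submergence they became 11 higher and 11 lower.

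The highest group mean fell in an ago1-27 group for 8 of 12 P450s, 12 of 26 UGTs and 6 of 7 GSTs. The same share over all probe sets was not computed, so these counts are descriptions, and they include genes not called. Of all genotype calls on the array, 60.7% in the dark and 60% under submergence were higher in ago1-27. Among the UGTs, 8 had their highest mean in wild type dark, among them the 3 UGT73B genes, UGT76B1, UGT84A3 and UGT87A2. GSTU25 was the GST with its highest mean in a wild-type group, at 517 ± 78.9 in wild type submerged. Relative to each gene's mean log2 signal over all arrays, the median GST stood at 0.13 to 0.25 on the ago1-27 submerged arrays, 0.37 to 0.55 on ago1-27 dark, -0.47 to -0.34 on wild type submerged and -0.81 to -0.12 on wild type dark. The genotypes thus did not overlap for the median GST. The median UGT stood at -0.08 to 0.24 on ago1-27 submerged, -0.15 to -0.1 on ago1-27 dark, 0.08 to 0.29 on wild type submerged and -0.05 to 0.08 on wild type dark. Its genotypes overlapped under submergence. In the dark they did not overlap, though the nearest arrays were at -0.1 in ago1-27 and -0.05 in wild type. For the median P450 the genotypes were apart in the dark (0.2 to 0.3 in ago1-27 and -0.42 to -0.27 in wild type) and overlapped under submergence (-0.22 to 0.35 in ago1-27 and -0.21 to -0.13 in wild type).

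**Figure D4:**
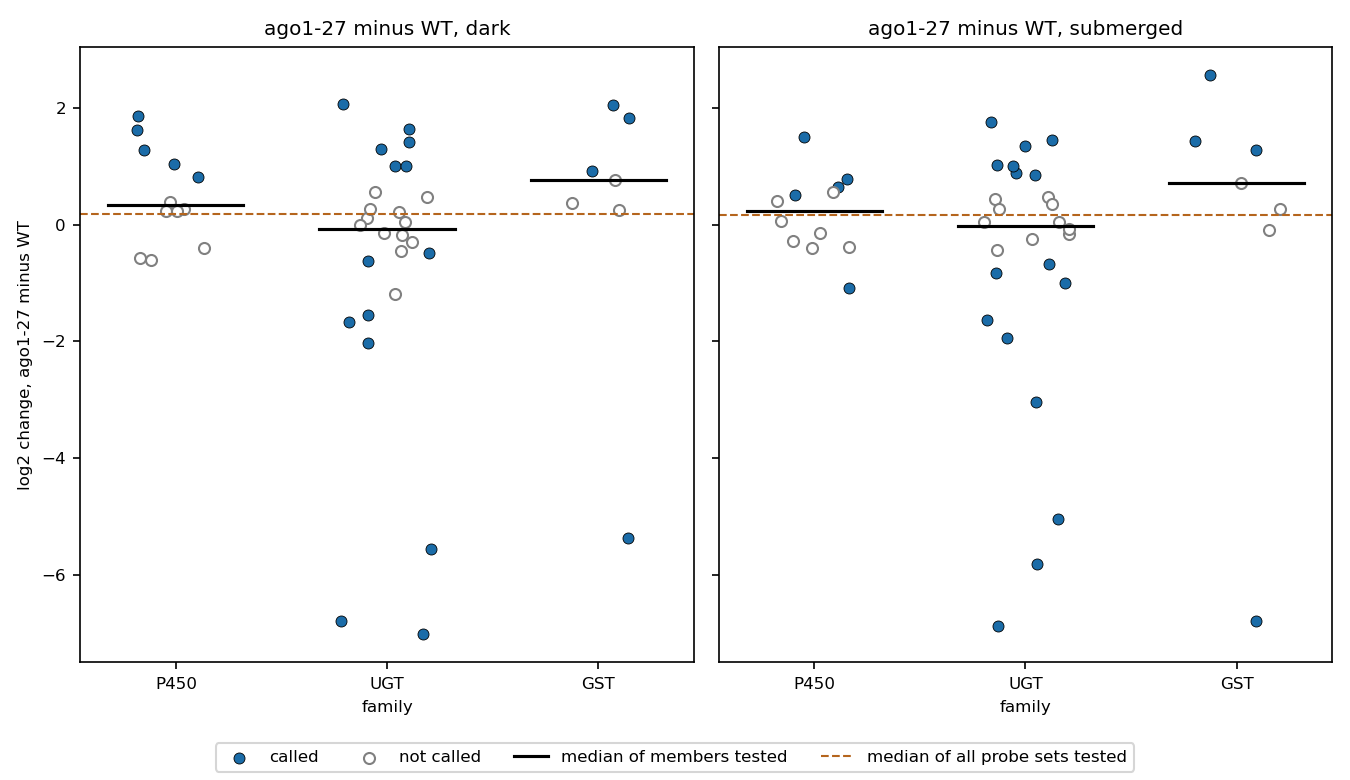
Log2 change (ago1-27 minus wild type) of each tested gene by family, in the dark at left and under submergence at right. Filled points are genes called at an adjusted p under 0.05, black lines are medians of the tested genes, and the dashed line is the median of all probe sets tested (0.17). GST medians lie above the line and UGT medians below it; points under -4 are genes at or under the low-signal limit in ago1-27, whose size is not measured.

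Many of these genes lie in tandem: 52 of the 82 fall into 19 groups of same-family members within 3 gene steps of each other in the RefSeq gene order. In 10 of the groups at least 2 genes were tested. In the dark, neighbours were called in the same direction in 2 groups, UGT73B5 with UGT73B4 (lower in ago1-27) and CYP71B34 with CYP71B35 (higher). They were called in opposite directions in 1 group, with UGT71C5, whose call lay at the threshold, lower and UGT71C4 higher. In 6 groups a single gene was called, as in CYP71B22 beside CYP71B23 and CYP71B24, GSTU20 beside GSTU23, and UGT76C1 beside UGT76C2, and in 1 group none was. Under submergence the calls ran in the same direction in 1 group (UGT73B5 with UGT73B4) and in opposite directions in 3: UGT71C4 higher with UGT71C5 lower, UGT71B1 higher with UGT71B6 lower, and CYP71B22 higher with CYP71B23 lower. In the other 6 groups a single gene was called. Tandem copies can share sequence, and a probe set may also bind a neighbour's transcript, which was not tested.

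Of 73 symbols for other parts of the pathway (electron donors, glutathione cycling, sugar donors, transporters and regulators), 6 genes had a probe set that names them. The glutathione reductase gene GR was at 3178 ± 147 in ago1-27 dark and 2205 ± 301 in wild type dark, and rose in both treatments (log2 change 0.54 ± 0.14 and 0.67 ± 0.14; adjusted p = 0.0057 and 0.0019). NQR rose as well (0.81 ± 0.19 and 0.58 ± 0.19). The alkenal reductase gene AER, whose product detoxifies reactive carbonyls, was at 308 ± 24.8 in ago1-27 dark and 1612 ± 853 in wild type dark, and fell by 2.19 ± 0.39 (adjusted p = 0.00048), and by 1.1 ± 0.39 under submergence (adjusted p = 0.036). GR1 and USP were not called, and AT5MAT did not pass the filter.

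Arrays labelled submerged were compared with those labelled dark within each genotype, to ask how these genes respond to water above the leaves. In ago1-27, 4 of the 45 (8.89%) were called, 1 higher and 3 lower, against 8.38% of all probe sets tested (4.19% higher and 4.19% lower). In wild type 4 (8.89%) were called, 1 higher and 3 lower, against 7.08% (4.71% higher and 2.37% lower). The ago1-27 share is near that of the whole array, and the wild-type one is above it by a difference that was not tested. The genotypes' contrasts share no arrays, and 3 genes were called in both: UGT72E1, higher under submergence, and UGT84A3 and CYP71B22, lower. Over all probe sets tested, 1.95% were called in both in the same direction. Submerged and dark arrays did not overlap for 14 of the 45 genes in ago1-27 and 14 of the 45 in wild type, beside 33.7% and 25.6% of all probe sets.

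UGT72E1 (AT3G50740), of lignin precursor metabolism, was at 730, 852 and 529 in ago1-27 submerged, against 269, 340 and 292 in ago1-27 dark. In wild type it was at 1289, 1395 and 753 submerged, against 338, 430 and 468 dark. Every submerged array was above every dark array of its genotype. UGT72E1 rose 2.31-fold in ago1-27 (log2 change 1.21 ± 0.24, adjusted p = 0.0116) and 2.71-fold in wild type (1.44 ± 0.24, adjusted p = 0.00488). The ago1-27 call was lost without ago1-27 dark replicate 3 (adjusted p = 0.053).

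UGT84A3, with the signals given above, fell by 0.70 ± 0.15 in ago1-27 (adjusted p = 0.0169) and by 0.73 ± 0.15 in wild type (adjusted p = 0.0148) on the log2 scale. The call was lost in ago1-27 without ago1-27 dark replicate 2 (adjusted p = 0.067) or 3 (0.08), and in wild type without WT submerged replicate 1 (0.082) or WT dark replicate 3 (0.064). CYP71B22 fell by 1.87 ± 0.20 in ago1-27 (adjusted p = 0.000512) and by 0.91 ± 0.20 in wild type (adjusted p = 0.0201). The wild-type call was lost without WT submerged replicate 2 (adjusted p = 0.057) or WT dark replicate 2 (0.058) or 3 (0.07).

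CYP71B24, the neighbour of CYP71B23 in the same tandem group, was at 358, 246 and 160 in wild type submerged, against 534, 587 and 527 in wild type dark. It fell by 1.18 ± 0.29 (adjusted p = 0.0275), a call lost without WT submerged replicate 2 (0.078) or 3 (0.088) and without WT dark replicate 2 (0.093) or 3 (0.076). In ago1-27 it was at 361, 434 and 212 submerged, against 362, 449 and 448 dark, and the groups overlapped (adjusted p = 0.443). UGT78D2 fell by 0.51 ± 0.14 in ago1-27 (adjusted p = 0.0493), a call lost without any 1 of the 6 ago1-27 arrays (adjusted p = 0.07 to 0.16), any of the WT submerged arrays (0.059 to 0.07) or WT dark replicate 3 (0.062). In wild type UGT78D2 was higher on every submerged array, at a log2 change of 0.45 ± 0.14 that did not pass the threshold (adjusted p = 0.0825).

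UGT76B1 was 3.69-fold lower in wild type submerged than in wild type dark, with no overlap, and did not pass the threshold (adjusted p = 0.261). It did pass with a floor on low signals (adjusted p = 0.0022), with a pseudocount (0.004) and in a fit of only the arrays compared (0.025). In ago1-27 both groups were under the low-signal limit, so no fold is given. Of the GSTs, 0 of 7 were called by limma in either submergence contrast. An unadjusted p under 0.05 was found for 2 of the 7 in ago1-27 and 1 of the 7 in wild type. Of the 14812 probe sets tested, 3701 had such a p in ago1-27 and 3336 in wild type, so the GST counts are descriptions. GSTU16 was lower on every submerged array of both genotypes, with an adjusted p of 0.0648 in ago1-27 and 0.139 in wild type. Without WT dark replicate 1 and ago1-27 submerged replicate 3, the arrays that lay apart, 5 genes were called in ago1-27 and 12 in wild type. The share of all probe sets called in that fit is not given here, so these counts are not read as a result about these genes.

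**Figure D5:**
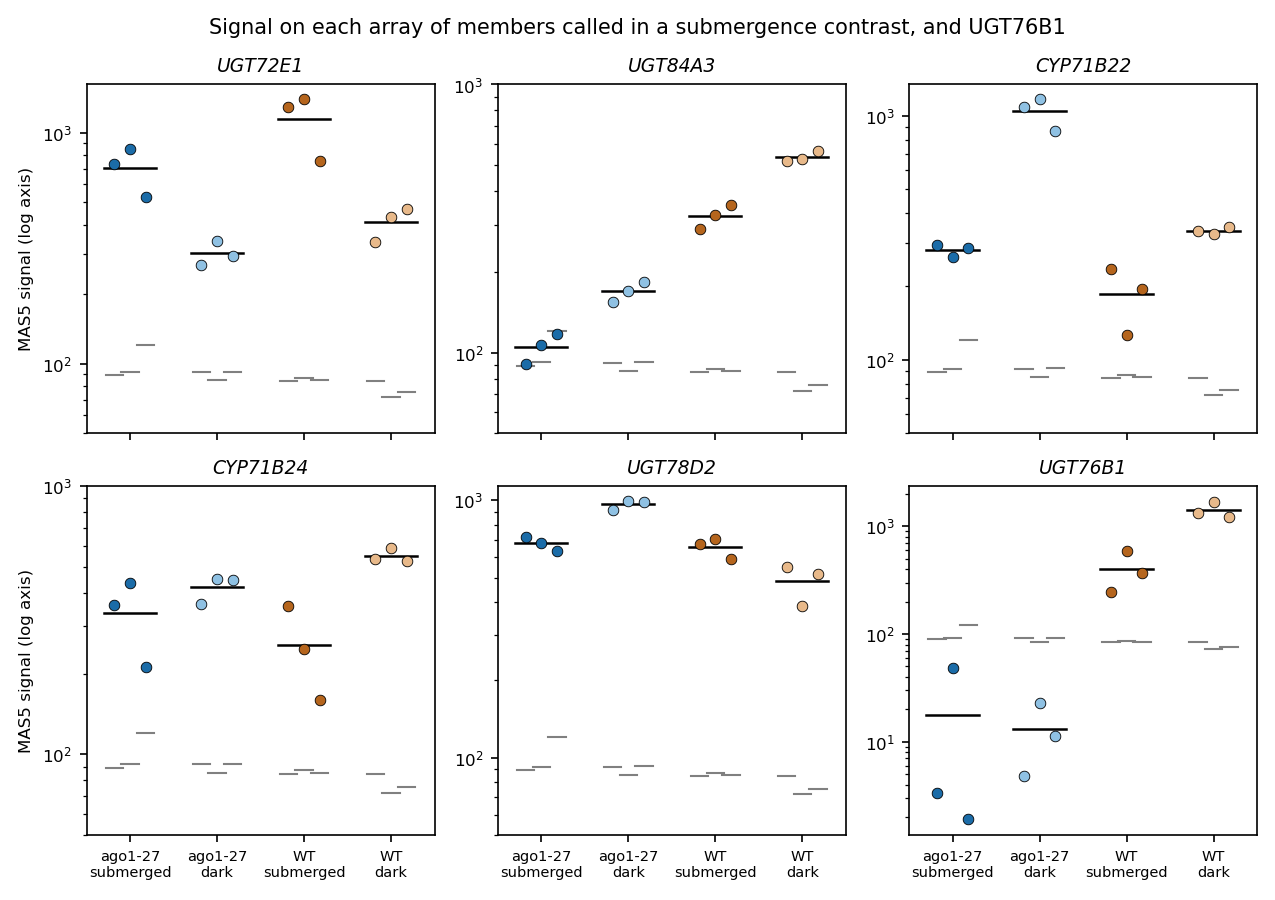
Deposited signal on each array (points, log axis) of the 5 genes called in a submergence contrast and of UGT76B1, with the group mean as a black line and each array's low-signal limit as a grey tick. UGT72E1 is higher on every submerged array than on the dark arrays of its genotype, and UGT84A3 and CYP71B22 are lower.

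The interaction asks whether the change under submergence differs between ago1-27 and wild type. limma called 0 of the 45 genes, against 0.284% of all probe sets. An unadjusted p under 0.05 was found for 6 of the 45 genes, beside 2187 of the 14812 probe sets tested. The 6 genes were UGT78D2, CYP71B22, UGT74B1, CYP71B34, CYP71B35 and UGT85A7, and their count is a description. The lowest adjusted p was that of UGT78D2 (0.0693), whose submergence change was 0.96 ± 0.20 lower on the log2 scale in ago1-27 than in wild type. CYP71B22 followed with a difference of -0.96 ± 0.29 (adjusted p = 0.159) and UGT74B1 with 1.06 ± 0.33 (adjusted p = 0.165). Without WT dark replicate 1, UGT78D2 and UGT74B1 passed the threshold (adjusted p = 0.016 and 0.032). With array weights, which also use all 12 arrays, 5 genes passed: UGT78D2 (-0.88, adjusted p = 0.0062), UGT74B1 (0.86, 0.017), CYP71B34 (-0.69, 0.038), CYP71B22 (-0.91, 0.043) and UGT71B1 (-0.66, 0.046). Whether these genes' changes differ between genotypes thus depends on how the arrays are weighted. The share of all probe sets that passed with array weights is not given here. CYP71B24, called in wild type only, passed for the interaction in none of the alternatives.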

How the data were processed

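Biotin-labelled leaf RNA was prepared with a 3' IVT kit, per the labels' protocols. The deposited table gives the authors' linear signal intensity per probe set. It was computed by MAS5, according to the submitters' processing notes; version and settings are not given in the sources used here. It holds 22810 probe sets, of which 13513 name a single gene, 503 several and 8794 none. Symbols come from the platform annotation supplied here, and all 82 members matched a gene in RefSeq. No genome build is named, so no coordinates or sequences are printed.

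Signals were taken as log2, the 64 control probe sets left out, and probe sets under their array's 40th percentile on more than 9 of 12 arrays dropped, leaving 14812. limma 3.58.1 in R 4.3.3 fitted 4 group means on all 12 arrays with a variance trend on intensity (residual degrees of freedom 8, prior 4.61). Tests are two-sided. Where every array of a group lay under the 40th percentile, the fold is a bound against that limit. The fit was tested on simulated data with known changes.

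The members and lists were chosen with earlier results of these data known. Genes named are UGT76B1, GSTU25, up to 5 rises and 5 falls per contrast and family among the calls, members of the role lists, and pathway genes called; genes named outside that rule (such as GSTL3, GSTU16 and GSTU23, genes under the limit, calls found only without the filter, and pathway genes not called) were chosen after their values were seen. The replicates are biological per the series' design text. Replicate numbers were checked for pairing: 8 of 18 same-numbered pairs had a residual correlation above 0.1 (range -0.28 to 0.35), and the fit has no pairing. The alternatives changed the filter, the scaling, the treatment of low signals, the variance model, array weights, a replicate block, the arrays in the fit and single arrays left out.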

Additional observations from a re-analysis of the deposited data

How the results depend on the processing

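Of the members called, 21 of 23 in the genotype contrast in the dark were called under every alternative, 18 of 25 under submergence, 1 of 4 in the wild-type submergence contrast (UGT72E1) and 1 of 4 in the ago1-27 one (CYP71B22). None of these calls reversed its direction under any alternative run. The calls lost at least once were UGT71C5 and UGT74B1 in the dark and CYP71B5, CYP71B22, CYP71B23, CYP71B26, UGT72E1, UGT73B1 and UGT85A7 under submergence, counting alternatives in which the gene was still tested. Leaving out an array at a time gave 21 to 25 calls in the dark, 21 to 28 under submergence, 1 to 5 for submergence in ago1-27, 1 to 9 for submergence in wild type and 0 to 2 for the interaction. The wild-type count was 9 without WT dark replicate 1, 7 without ago1-27 submerged replicate 3, 2 without WT submerged replicate 2 or WT dark replicate 2, and 1 without WT dark replicate 3. The ago1-27 count was 2 without ago1-27 dark replicate 2 and 1 without replicate 3. With array weights the counts were 10 in ago1-27, 14 in wild type and 5 for the interaction. Leaving out both arrays that lay apart, an alternative chosen after seeing the data, gave 12 in wild type and 3 for the interaction (UGT71B1, UGT74B1 and UGT78D2). A floor at the 25th percentile gave 1 interaction call, UGT76B1. The share of all probe sets called under these alternatives is not given here, so the counts may follow a general gain or loss of calls. The cause of these changes was not tested.

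With the replicate number as a block, although the numbers did not pair the arrays, the counts were 22 in the dark, 24 under submergence, 3 for submergence in ago1-27, 5 in wild type and 0 for the interaction. That block ended the calls of UGT71C5 in the dark (adjusted p = 0.068), CYP71B5 under submergence (0.05) and UGT78D2 for submergence in ago1-27 (0.066). A fit of only the arrays compared ended those of CYP71B22, CYP71B23, CYP71B5 and UGT72E1 under submergence (0.057, 0.057, 0.083 and 0.067), CYP71B22 and CYP71B24 in wild type (0.089 and 0.066) and UGT84A3 in ago1-27 (0.075). The mean over several probe sets per gene was not run, since each member has exactly 1. The fit on only the arrays compared does not exist for the interaction, which needs all 4 groups. Signals under the low-signal limit carry no order, so sizes of change there are bounds.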
